A study of Mus musculus with 8 samples.

Results

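The 9 genes described here are Aldh1a1, Aldh1a2, Aldh1a3, Aldh1a7, Crabp1, Crabp2, Rbp4, Rarb and Rarg. They code for dehydrogenases of the Aldh1a family, for proteins that carry retinoids and for nuclear receptors that bind retinoic acid. Every array probe whose platform symbol is one of these names was taken, which gave 16 probes for 9 of the 19057 named genes of the series. The genes were chosen by name with the levels and the state differences of these same 8 arrays already known. The levels of the 9 genes and their differences between cell states are therefore given as a description, with no p-value.

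Retinol, the transport form of vitamin A, travels in blood bound to Rbp4 and is oxidised in cells first to retinaldehyde and then to retinoic acid. The second step is carried out by retinaldehyde dehydrogenases of the Aldh1a family. Whether Aldh1a7 carries it out was not examined here. Retinoic acid is bound in the cytoplasm by Crabp1 and Crabp2 and acts through the receptors Rara, Rarb and Rarg, which pair with retinoid X receptors on DNA and switch target genes, Rarb itself among them. In skeletal and marrow stroma, retinoic acid signalling is known to influence the choice between fat, cartilage and bone.

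The 8 Illumina arrays hold total RNA of mesenchymal stem cells (MSCs) from adult marrow of the mouse strain C57BL/6J and of cells obtained from them. MSCs belong to the marrow stroma and can turn into bone, cartilage and fat cells. The undifferentiated MSCs are on 2 arrays, d0 and p4 by title. Differentiated adipocytes (d7), differentiated chondrocytes (d28), differentiated osteocytes (d21), reprogrammed adipocytes (p1), reprogrammed chondrocytes (p1) and reprogrammed osteocytes (p1) had 1 array each. The labels explain neither d nor p, name no differentiation medium or reprogramming agent, and do not say whether arrays came from separate cultures or animals. Spread between differentiated arrays, or between reprogrammed arrays, is therefore spread between lineages. Spread between the MSC arrays is the difference between d0 and p4. Either may be in part technical.

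Values are deposited log2 intensities. Each array had a median of 3.901 and 12610 of 45281 probes at or above 6, the level used here as a minimum for a gene to be compared. The arrays fell into sets by title, with 4317 to 5204 probes at 0 in the d set (MSC d0 and the 3 differentiated arrays) and 6815 to 7652 in the p set (MSC p4 and the 3 reprogrammed arrays). Differentiated and reprogrammed cells lie in different sets, so set and state cannot be told apart except through 1 MSC array in each, and state differences of the 9 genes are followed by values with the set as a block. Of the markers with a probe, 6 of 7 adipocyte markers reached the level in differentiated adipocytes, against 1 to 3 elsewhere. The osteoblast and osteocyte list reached it with 4 of 6 markers in the cells labelled differentiated chondrocytes, with 2 of 6 in those labelled differentiated osteocytes and with 1 to 3 on the other arrays. The chondrocyte list had 2 of 6 in the cells labelled differentiated chondrocytes, Col2a1 and Sox9, and 1 or 2 elsewhere. Acan and Comp, which define cartilage matrix, were under the level on all arrays. The Col2a1 probe of highest mean read 9.15 in differentiated chondrocytes, 2.94 in differentiated adipocytes and 4.38 in differentiated osteocytes. It read 6.83 and 8.76 on MSC d0 and p4, and was highest in reprogrammed cells, at 9.74 to 10.41. Sox9 read 10.73 in differentiated chondrocytes and 6.29 to 10.57 elsewhere. Endothelial markers were under it on all arrays, with 0 of 5 at the level.

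Aldh1a1 and Aldh1a7 are neighbouring copies on chromosome 19 of the mouse, and the annotated sequence just before their starts is shown to compare the copies there. In RefSeq (GRCm38.p6) Aldh1a1 spans chr19:20492583-20643463 and Aldh1a7 chr19:20692953-20727556 on the opposite strand, with 49489 bases and 0 annotated genes between them. The 100 bases before the second of the annotated Aldh1a1 starts (chr19:20601868-20601967, + strand) and before the Aldh1a7 start (chr19:20727557-20727656, − strand) read, 5′ to 3′, with the bases that differ in capitals:
Aldh1a1: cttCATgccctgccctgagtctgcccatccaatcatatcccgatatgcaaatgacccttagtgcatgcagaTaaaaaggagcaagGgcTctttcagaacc
Aldh1a7: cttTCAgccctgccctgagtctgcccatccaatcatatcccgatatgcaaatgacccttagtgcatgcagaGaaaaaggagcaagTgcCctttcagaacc
Between them 94 of 100 bases are identical. The 6 differences are C4T, A5C, T6A, T72G, G86T and T89C, counted from 1 at the 5′ end of the window with the Aldh1a1 base first. Over the whole 300-base windows of the reference table, Aldh1a7 matched this Aldh1a1 window at 83.8% of 278 aligned positions without a gap, against 61.3% to 78.7% for the windows of the other genes and the other Aldh1a1 start. Windows were matched for 7 of the 9 genes, all but Aldh1a3 and Crabp2.

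The receptor gene Rarb is shown for another reason: a promoter inside the gene carries the textbook retinoic acid response element, a direct repeat of GTTCA. The Rarb start used here lies within the annotated span of the gene (chr14:16430839-17082331). The 100 bases before its start (chr14:16575477-16575576, − strand) read, with the match to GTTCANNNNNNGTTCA in capitals:
Rarb: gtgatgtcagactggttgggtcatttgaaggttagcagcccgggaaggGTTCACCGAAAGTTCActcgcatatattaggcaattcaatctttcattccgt
The match runs from -52 to -37 relative to this internal start. Searched on both strands, these letters occur in 25 of 32851 promoter windows of the reference table (0.0761%), and among the 7 genes with a window in Rarb alone. The direct repeats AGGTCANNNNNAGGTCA and AGGTCANNAGGTCA each occur in 3 windows (0.00913%) and in none of these 7 genes. TATAAA occurs in 13.6% of windows, including that of Aldh1a7, at -244, and an Rbp4 window, at -28. The window of the other Rbp4 start has no match. A match describes letters and not binding.

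**Figure D1:**
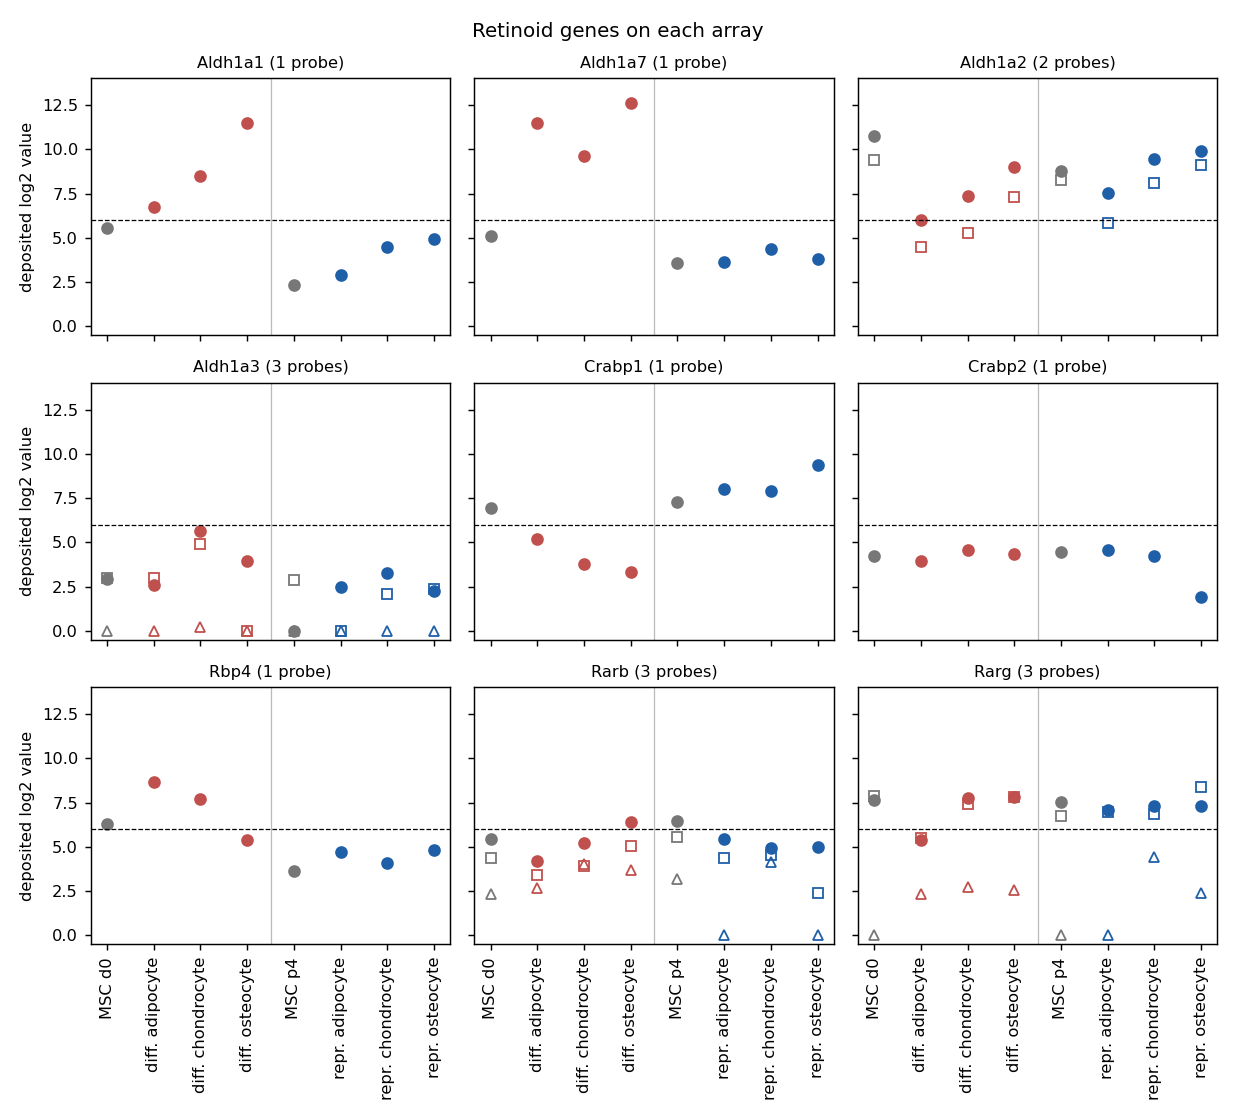
Deposited log2 value of each of the 9 genes (vertical axis) on each of the 8 arrays (horizontal axis), 1 point per array and probe, grey for MSCs, red for differentiated and blue for reprogrammed cells. Filled circles are the probe of highest mean and open symbols the other probes of the gene, the dashed line is the level of 6, and the vertical line parts the d set from the p set. Aldh1a1 and Aldh1a7 are above 6 only on the 3 differentiated arrays, and Crabp1 is under 6 only on those arrays.

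Aldh1a1 and Aldh1a7 had the widest range over the arrays of the 7 genes that reached the level. Aldh1a1, a retinaldehyde dehydrogenase that is also a general aldehyde-clearing enzyme, stood at 6.73 in differentiated adipocytes, 8.48 in differentiated chondrocytes and 11.49 in differentiated osteocytes. The MSC arrays were at 5.55 (d0) and 2.36 (p4), and the reprogrammed arrays at 2.92 in adipocytes, 4.50 in chondrocytes and 4.92 in osteocytes. All 3 differentiated arrays lay above the level and above every other array, and all 5 other arrays lay under the level. The differentiated arrays themselves spread widely, with osteocytes 23.6-fold above adipocytes and 7.77-fold above chondrocytes.

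Fold changes were taken after adding an offset of 16 on the linear scale, which shrinks the differences of dim probes, so that changes of weakly expressed genes are understated. On that scale Aldh1a1 averaged 8.99 ± 2.31 (SD, n = 3) in differentiated cells, 5.19 ± 1.11 (n = 2) in MSCs and 5.12 ± 0.50 (n = 3) in reprogrammed cells. Differentiated minus MSC was 3.80 (limma standard error 1.17), and 3.02 within the d set. Reprogrammed minus differentiated was -3.87 (standard error 1.04), and -2.30 with the array set as a block. Because the dim arrays give only a bound, Aldh1a1 was at least 6.36-fold higher in differentiated cells than in either other state.

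By lineage, Aldh1a1 was at least 1.53-fold lower in reprogrammed than in differentiated adipocytes, at least 4.65-fold lower in chondrocytes and at least 36.1-fold lower in osteocytes. The direction was the same in all 3 lineages, with the osteocyte lineage farthest apart. Reprogrammed cells and MSCs were both under the level, so no fold is given between them.

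Aldh1a7, the rodent copy of Aldh1a1, had the largest state difference of the 7 genes that could be compared. Its probe read 11.48 in differentiated adipocytes, 9.61 in differentiated chondrocytes and 12.60 in differentiated osteocytes. The MSC arrays were at 5.09 (d0) and 3.60 (p4), and the reprogrammed ones at 3.63 in adipocytes, 4.38 in chondrocytes and 3.83 in osteocytes. The differentiated arrays lay far above all 5 others with no overlap, and the largest gap in the order of arrays, 3.99 after the offset, fell right below differentiated chondrocytes.

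After the offset Aldh1a7 averaged 11.2 ± 1.5 (SD, n = 3) in differentiated cells, 5.23 ± 0.59 (n = 2) in MSCs and 4.98 ± 0.20 (n = 3) in reprogrammed cells. Differentiated minus MSC was 6.01 (standard error 0.75), and 5.60 within the d set. The difference between reprogrammed and differentiated cells was -6.26 (standard error 0.67), and -5.43 once the array set was a block. The bound on both was at least 30.3-fold. Within lineages Aldh1a7 was at least 35.9-fold lower in reprogrammed than in differentiated adipocytes, at least 9.94-fold lower in chondrocytes and at least 78.0-fold lower in osteocytes.

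Copies of a gene can share array signal, and whether the 2 probes do so was not tested. No probe or transcript sequence was used here, and the likeness shown above is of sequence before the starts. The probes did not order the differentiated arrays alike: the Aldh1a1 value was higher in chondrocytes than in adipocytes by a log2 of 1.60, and the Aldh1a7 value lower by 1.85 (-1.85). Osteocytes exceeded chondrocytes by 2.96 for Aldh1a1 and by 2.97 for Aldh1a7. Across the 8 arrays the probes correlated at r = 0.88, a description over arrays that share states and sets.

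Markers of mesothelial and epithelial cells moved with Aldh1a1 in part. Of 7 such markers with a probe, 2 reached the level in differentiated osteocytes and 1 in differentiated chondrocytes, and 0 on the other arrays. Msln (mesothelin) stood at 10.56 in differentiated osteocytes, 7.30 in differentiated chondrocytes and 2.37 in differentiated adipocytes. The other marker at the level in differentiated osteocytes was Cdh1, at 6.3 on its brighter probe and at 0 on the other. The brighter Cdh1 probe read 4.63 in differentiated chondrocytes and 5.13 in differentiated adipocytes, so it did not order these arrays as Aldh1a1 did. The summed level of the list was 10.69 (log2) in differentiated osteocytes, 7.81 in differentiated chondrocytes and 6.77 in differentiated adipocytes, and 5.56 to 6.24 on the other arrays. Most of this sum was Msln alone in differentiated osteocytes and chondrocytes, so it adds little to the Msln values. Epcam, which defines epithelium, was at 0 on all 3 differentiated arrays, and Krt8, Krt18, Krt19 and Upk3b were under the level on all 8. The part of such cells in the Aldh1a1 values was not tested. In bulk RNA, fewer cells that carry a transcript and less of it per cell cannot be told apart.

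Aldh1a2, the retinaldehyde dehydrogenase that makes most retinoic acid in the embryo, was measured by 2 probes. Its average was lowest in differentiated cells, where those of Aldh1a1 and Aldh1a7 were highest. Across the 8 arrays, however, its brighter probe correlated only at r = -0.14 with Aldh1a1 and at -0.5 with Aldh1a7. Its brighter probe read 10.76 on MSC d0 and 8.79 on MSC p4. It read 6.03, 7.34 and 9.0 in differentiated adipocytes, chondrocytes and osteocytes, and 7.56, 9.46 and 9.89 in the reprogrammed counterparts. The lowest 2 values were differentiated adipocytes and chondrocytes, while differentiated osteocytes lay above MSC p4, so the states overlapped on this probe. The second probe read 9.39 and 8.25 on MSC d0 and p4, and 4.46, 5.29 and 7.31 in differentiated adipocytes, chondrocytes and osteocytes. In the reprogrammed cells it read 5.85, 8.11 and 9.11 in the same order, and it followed the first at r = 0.967 over the 8 arrays. On the second probe every differentiated array lay below both MSC arrays, while differentiated and reprogrammed arrays overlapped.

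After the offset, the brighter Aldh1a2 probe differed by -2.19 (standard error 0.96) between differentiated cells and MSCs, a 4.55-fold lower level, and by -3.15 within the d set. Reprogrammed minus differentiated was 1.41 (standard error 0.86), a 2.66-fold higher level, and 3.34 with the array set as a block. MSC d0 itself stood 3.81-fold above MSC p4. By lineage the reprogrammed array was higher in each, 2.52-fold in adipocytes, 4.04-fold in chondrocytes and 1.84-fold in osteocytes.

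In both states the adipocyte array had the least Aldh1a2. Reprogrammed osteocytes exceeded reprogrammed adipocytes 4.72-fold, and differentiated osteocytes exceeded differentiated adipocytes 6.48-fold. Reprogrammed adipocytes were 4.37-fold below the mean of the MSC arrays, and below each of them. On the brighter probe, reprogrammed chondrocytes and osteocytes lay between the MSC arrays.

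Aldh1a3, another retinaldehyde dehydrogenase, had 3 probes and none reached the level on any array. The highest values were 5.66 and 4.90 on the first and second probe, both in differentiated chondrocytes, and on the other 7 arrays these probes stood between 0 and 3.94. The third probe was at 0 on 7 arrays and at 0.25 in differentiated chondrocytes. A probe under the level has only a bound here, and no fold is given.

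Among the binding proteins, Crabp1, which binds retinoic acid in the cytoplasm, had the opposite pattern to Aldh1a7. It stood at 6.95 and 7.27 on MSC d0 and p4, at 5.18, 3.80 and 3.35 in differentiated adipocytes, chondrocytes and osteocytes, and at 8.01, 7.88 and 9.39 in the reprogrammed ones. All 3 differentiated arrays were under the level, both MSC arrays above it, and all 3 reprogrammed arrays above both MSC arrays, with no overlap between any of the states. The MSC arrays, which differed for several of these genes, were 0.28 apart for Crabp1 after the offset.

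After the offset Crabp1 averaged 5.11 ± 0.53 (SD, n = 3) in differentiated cells, 7.27 ± 0.20 (n = 2) in MSCs and 8.50 ± 0.81 (n = 3) in reprogrammed cells. From differentiated to reprogrammed cells the difference was 3.39 (standard error 0.44), at least 4.52-fold, and 3.11 with the array set as a block. Differentiated minus MSC was -2.16 (standard error 0.49), at least 1.92-fold lower, and -2.02 within the d set. Reprogrammed minus MSC was 1.23 (standard error 0.49), a 2.35-fold higher level, and 1.09 within the p set.

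By lineage, Crabp1 was at least 3.42-fold higher in reprogrammed than in differentiated adipocytes, at least 3.15-fold in chondrocytes and at least 8.6-fold in osteocytes. Reprogrammed osteocytes had the most Crabp1 of all arrays, 4.47-fold above the MSC mean. Across the 8 arrays Crabp1 correlated at r = -0.89 with Aldh1a7 and at -0.82 with Aldh1a1, over arrays that share 3 states.

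Crabp2, which hands retinoic acid to its receptors, had 1 probe and stayed under the level on all arrays. Its values ran from 3.95 to 4.58 on 7 arrays and were 1.94 in reprogrammed osteocytes.

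Rbp4, the carrier of retinol in blood that fat tissue also secretes, was highest in differentiated adipocytes. It stood at 8.68 there, at 7.72 in differentiated chondrocytes and at 5.39 in differentiated osteocytes. MSC d0 was at 6.27 and MSC p4 at 3.65, and the reprogrammed arrays were at 4.72, 4.07 and 4.82 in adipocytes, chondrocytes and osteocytes. Every reprogrammed array was under the level and under every differentiated array, whereas differentiated osteocytes and MSC d0 overlapped.

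After the offset Rbp4 differed by 1.78 (standard error 0.82) between differentiated cells and MSCs, with MSC p4 under the level, and by 0.93 within the d set. For reprogrammed against differentiated cells it was -2.17 (standard error 0.73), at least 2.22-fold lower, but only -0.47 with the array set as a block. By lineage it was at least 5.32-fold lower in reprogrammed adipocytes and at least 2.84-fold lower in reprogrammed chondrocytes. In the osteocyte lineage both arrays were under the level and the difference was -0.39. Differentiated adipocytes also had the highest summed level of the 7 adipocyte markers, 16.19 (log2) against 12.34 to 14.24 on the other arrays, with Adipoq at 14.56. None of these 7 markers was at 0 there. The part of fat cells in the Rbp4 values was not tested.

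The receptors differed less between states. Rarg, a retinoic acid receptor known for its part in cartilage, had 2 probes at the level on 7 of 8 arrays. The probe of highest mean stood at 7.67 and 7.51 on MSC d0 and p4, at 5.37, 7.76 and 7.81 in differentiated adipocytes, chondrocytes and osteocytes, and at 7.10, 7.31 and 7.29 in the reprogrammed ones. The exception was differentiated adipocytes, the lowest array for both probes and the only one under the level. The second probe read 5.53 there and 6.72 to 8.36 on the other arrays, with reprogrammed osteocytes at the top. The third probe was under the level throughout, at 4.44 or less.

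Rarg in differentiated adipocytes was 1.87 below the MSC mean (-1.87), and reprogrammed adipocytes were 1.42 above differentiated adipocytes. In chondrocytes and osteocytes the reprogrammed array was lower, by -0.41 and -0.48. On the second probe these differences were 1.17, -0.53 and 0.51 in adipocytes, chondrocytes and osteocytes, so the probes parted in osteocytes. The state averages differed by 0.18 (standard error 0.52) between reprogrammed and differentiated cells and by -0.50 (standard error 0.58) between differentiated cells and MSCs, within the spread of the lineages. Without differentiated adipocytes the second became 0.18. The differences were 0.33 and -0.58 with the array set as a block.

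Rarb, a receptor whose own gene is a classic target of retinoic acid, was close to the level. The probe of highest mean reached 6.47 on MSC p4 and 6.42 in differentiated osteocytes, and was at 5.43 on MSC d0. It was at 4.23 and 5.23 in differentiated adipocytes and chondrocytes and at 5.45, 4.92 and 4.97 in reprogrammed adipocytes, chondrocytes and osteocytes. Only 2 arrays reached the level, and they belong to different states. The other Rarb probes were under it on all arrays, at 5.57 or less and 4.16 or less.

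Between states Rarb differed by -0.45 (standard error 0.47) for differentiated cells against MSCs and by -0.18 (standard error 0.42) for reprogrammed against differentiated cells. With the array set as a block these were -0.04 and -1.0. By lineage, reprogrammed minus differentiated was 0.78 in adipocytes, -0.21 in chondrocytes and -1.11 in osteocytes, but in adipocytes and chondrocytes both arrays were under the level, so no direction is drawn from these values. The other Rarb probes read 0.33 and 0.07 in chondrocytes, also under the level.

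**Figure D2:**
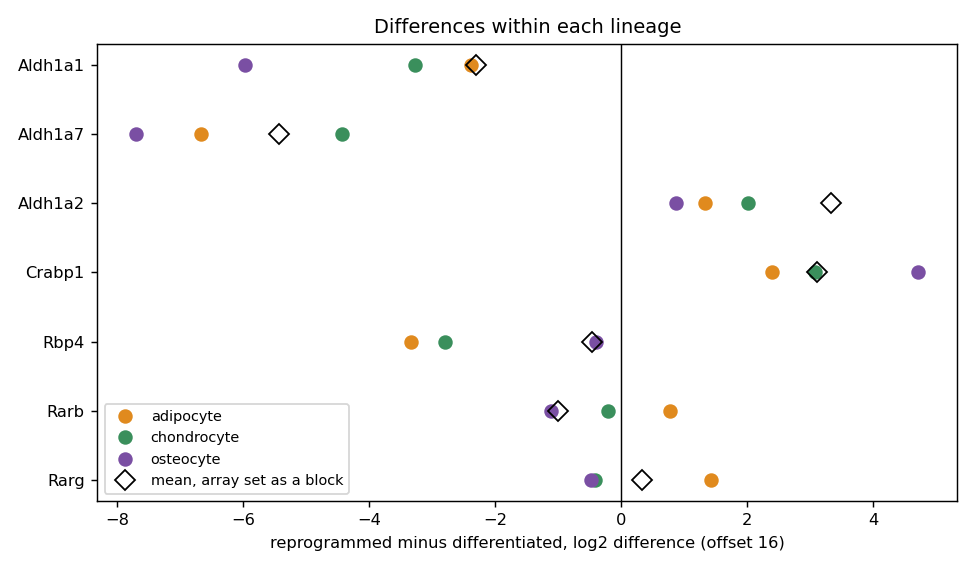
Difference in log2 level after the offset, reprogrammed minus differentiated array (horizontal axis), for the 7 genes that reached the level (vertical axis), with 1 dot per lineage and an open diamond for the mean with the array set as a block. Aldh1a1 and Aldh1a7 lie left of 0 and Aldh1a2 and Crabp1 right of 0 in all 3 lineages, while Rarb and Rarg fall on both sides, Rarb with both arrays under the level in adipocytes and chondrocytes.

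Of the 9 genes, 7 reached the level on at least 2 arrays and entered the fit, Aldh1a1 and Aldh1a7 through the differentiated arrays alone. That group is not the full list, since Aldh1a3 and Crabp2 are missing from it. In the limma fit over 8317 genes with Benjamini-Hochberg adjustment, reprogrammed against differentiated cells gave 54 calls, 0.649% of genes, and Aldh1a7 (lower) and Crabp1 (higher) were 2 of the 7. Differentiated cells against MSCs gave 5 calls (0.0601%) with 0 of the 7. Reprogrammed cells against MSCs gave 0 calls (0%), with 27 genes at an unadjusted p under 0.05. These shares are printed as background, and nothing is read from the members' counts, because those contrasts were known when the genes were listed. The 54 calls became 0 when the array set was a block. Without the differentiated adipocyte array they became 216, and without any 1 of the reprogrammed arrays 2.

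Counted by size, at a difference of at least 2-fold after the offset, reprogrammed and differentiated adipocytes differed in 33.1% of the 8317 genes and in 6 of the 7. For chondrocytes this was 18.3% of genes and 5 of the 7, and for osteocytes 18.9% and 4 of the 7. Against both MSC arrays, differentiated adipocytes differed in 19.2% of genes and 5 of the 7, differentiated chondrocytes in 8.51% and 5 of the 7, and differentiated osteocytes in 6.67% and 3 of the 7. Reprogrammed adipocytes differed from both in 1.07% of genes and in Aldh1a2 alone of the 7, which was lower. Reprogrammed chondrocytes differed in 0.132% and in 0 of the 7, and reprogrammed osteocytes in 1.21% and in Crabp1 alone, which was higher. The MSC arrays themselves differed in 14.8% of genes, with Aldh1a1, Aldh1a2 and Rbp4 lower on p4. Against MSCs a gene had to differ at least 2-fold, in the same direction, from each MSC array. That rule is stricter than the one between single arrays, so shares under the different rules cannot be set against each other. With 1 array a side there is no test, and the choice of genes applies here too.

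The arrays were also set in order of level, beside the difference between the MSC arrays, the only pair that shares a cell type label. That pair lies in different array sets and is 1 difference, so it gives no estimate of the spread within a cell type. Both MSC arrays also stand in the order, so a step lying between them cannot exceed their difference. How many steps lie there varied by gene, so the counts below cannot be compared between genes. On the probe of highest mean, none of the 7 steps between neighbouring arrays exceeded it for Aldh1a2, Rbp4 or Rarb, where it was 1.93, 1.70 and 0.82. For Aldh1a1, 2 of 7 steps exceeded the MSC difference of 1.57, and the largest, 2.96, lay below differentiated osteocytes. For Aldh1a7, 3 of 7 steps exceeded 0.83, and for Crabp1, 4 of 7 exceeded 0.28. For Rarg the count depended on the probe, with 3 of 7 steps over 0.15 on the probe of highest mean and 0 of 7 over 1.05 on the second. The second Aldh1a2 probe had 1 of 7 over 1.10.

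For 6 of the genes, Aldh1a1, Aldh1a2, Aldh1a7, Crabp1, Rbp4 and Rarg, those with the most similar pattern over the 8 arrays were taken from 1997 genes with a range of at least 2. Aldh1a7 was closest to Zbtb16 (r = 0.994), Serpina3n (0.98) and Slc43a1 (0.978). Aldh1a1 was closest to Slc45a3 and Id4 (both 0.982) and Cldn10 (0.967). Each of these was highest in differentiated osteocytes, as Aldh1a1 was.

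Aldh1a2 was closest to Nsg1 (r = 0.966), Cygb (0.958) and Tcea3 (0.958), and Rbp4 to Klhl25 (0.969) and Oxld1 (0.959). Crabp1 was closest to Slc39a1 (0.969), Ccdc6 (0.946) and Cbx3 (0.945). Rarg was closest to Pmp22 (0.994), Lpar1 (0.983) and Scarf2 (0.98), each lowest in differentiated adipocytes. These correlations over 8 arrays, which share 3 states and the array sets, carry no p-value. The 5 nearest genes by Spearman's rho shared between 0 (Aldh1a1) and 3 (Crabp1) of the 5 by Pearson's r.

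Other genes of the retinoid pathway showed what lay around the 9. A list of 54 had 48 genes with a probe, 18 of them at the level on at least 2 arrays. Limma called 0 of the 18 in each of the 3 state comparisons. At an unadjusted p under 0.05 there were 3 of 18 for differentiated cells against MSCs (863 of 8317 genes), 3 of 18 for reprogrammed against differentiated cells (1877 of 8317), and 0 of 18 for reprogrammed cells against MSCs. The median difference of the 18 was 0.48, -0.49 and -0.07 in these comparisons, beside -0.003, -0.04 and -0.04 over all genes.

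**Figure D3:**
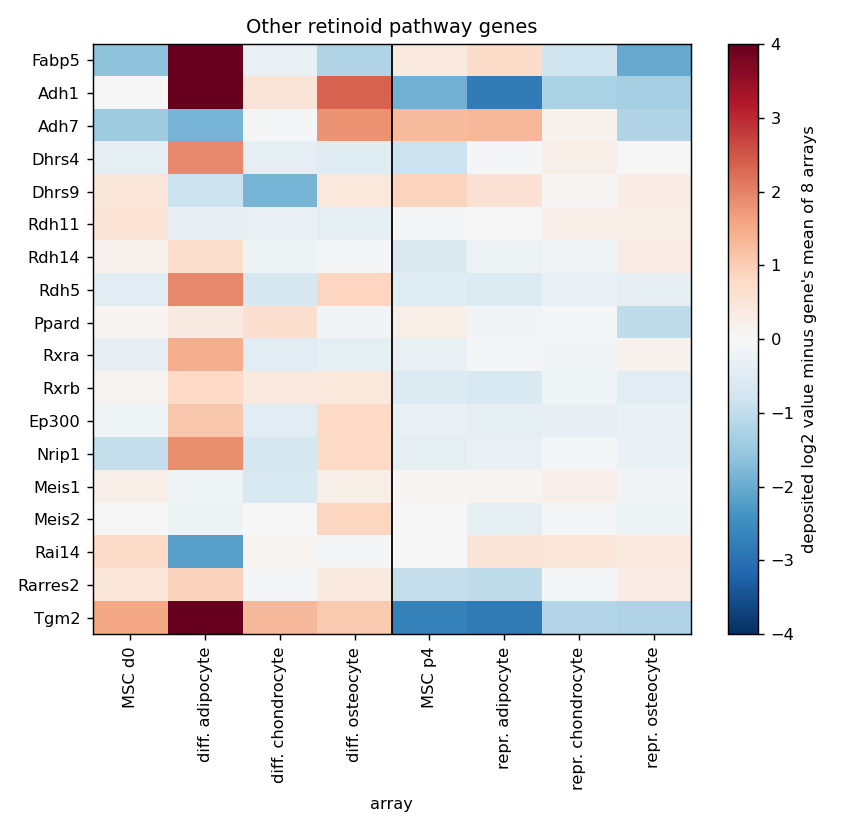
Deposited log2 value minus the gene's mean over 8 arrays (colour scale, red above and blue below the mean) for the 18 other retinoid pathway genes (vertical axis) on each array (horizontal axis), with a line between the d set and the p set. Differentiated adipocytes have the highest value of the 8 for Fabp5, Adh1, Tgm2, Rdh5, Rdh14, Dhrs4, Rxra, Rxrb, Nrip1, Ep300 and Rarres2. The other genes shown are highest on another array.

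Uptake and storage genes were mostly dim. Stra6, the membrane receptor for Rbp4-bound retinol and itself a retinoic acid target, reached 7.74 in differentiated osteocytes and at most 4.03 elsewhere on that probe. The other Stra6 probe was under the level on all arrays, at 4.46 in differentiated osteocytes. Lrat, which stores retinol as esters, was under the level on all arrays. Fabp5, a fatty acid carrier that also binds retinoic acid, stood at 11.75 in differentiated adipocytes and at 4.93 to 7.68 on the other arrays. Its difference for differentiated cells against MSCs was 1.61 (standard error 1.56, limma adjusted p = 0.748), and 2.43 within the d set.

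Among the enzymes of retinol oxidation, Adh1, an alcohol dehydrogenase that also acts on retinol, had the lowest adjusted p of the 18 genes for reprogrammed against differentiated cells. It stood at 9.77, 5.81 and 7.63 in differentiated adipocytes, chondrocytes and osteocytes, at 5.26 and 3.36 on MSC d0 and p4, and at 2.48, 4.02 and 3.95 in the reprogrammed arrays. Every differentiated array lay above every other array, though chondrocytes were under the level. Reprogrammed minus differentiated was -3.10 (standard error 0.81, limma adjusted p = 0.0968) and -2.05 with the array set as a block, and differentiated minus MSC was 2.66 (standard error 0.91, limma adjusted p = 0.387) and 2.14 within the d set.

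Rdh5, a retinol dehydrogenase, differed by 0.997 for differentiated cells against MSCs (limma adjusted p = 0.578) and by -0.96 for reprogrammed against differentiated cells (limma adjusted p = 0.287). Dhrs9, a short-chain dehydrogenase with retinol activity, differed by -1.05 for differentiated cells against MSCs (limma adjusted p = 0.463). Rdh10, the main retinol dehydrogenase of the embryo, was at 5.46 or less. Cyp26a1 and Cyp26b1, which break retinoic acid down, were at 5.91 or less, and so gave no comparison.

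Of the other receptors, Rxrb, a retinoid X receptor, differed by 0.74 (limma adjusted p = 0.448; 0.41 within the d set) between differentiated cells and MSCs and by -0.91 (standard error 0.26, limma adjusted p = 0.108) between reprogrammed and differentiated cells. Blocking on the array set moved the latter to -0.27. Ppard, a nuclear receptor that can respond to retinoic acid brought by Fabp5, differed by -0.68 between reprogrammed and differentiated cells (limma adjusted p = 0.265). Rara reached the level on 1 array, reprogrammed osteocytes, at 6.92. Nrip1, a corepressor induced by retinoic acid, differed by 0.98 and Ep300, a coactivator, by 0.71 for differentiated cells against MSCs, neither called.

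Among target genes of retinoic acid, Tgm2 (tissue transglutaminase) stood at 14.36, 11.63 and 11.38 in differentiated adipocytes, chondrocytes and osteocytes and at 7.52, 9.16 and 9.13 in the reprogrammed ones. MSC d0 was at 11.90 and MSC p4 at 7.65, so the d set and the p set did not overlap, MSCs included. Reprogrammed minus differentiated was -3.79 (standard error 1.16, limma adjusted p = 0.122) and turned to 0.35 with the array set as a block. Rai14, a gene named for its induction by retinoic acid, differed by 1.15 (limma adjusted p = 0.277) and by 1.92 with that block. Rarres2, which codes for the adipokine chemerin, had 2 probes of 3 at the level on the differentiated arrays alone. One read 8.16, 8.44 and 6.94 in differentiated adipocytes, chondrocytes and osteocytes, and the other 7.58, 7.68 and 6.32. The remaining probe, which was the one in the fit, differed by 0.49 for differentiated cells against MSCs (limma adjusted p = 0.735), and by -0.08 within the d set.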

How the data were processed

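Per the labels' protocols, RNA was purified on RNeasy columns (Qiagen) and amplified to biotinylated cRNA with MessageAmp reagents (Ambion). The values used are the log2 intensities the authors deposited for 45281 probes. How they were normalized is not stated by the labels. When sorted, values over 2 agreed between arrays within 0.0175, so the arrays share 1 distribution above a floor of 0. The 16 value columns of another deposited table were left out because their names fit no label. Symbols came from the platform annotation (34885 probes with 1 symbol, 18 with several, 10378 with none). Entrez identifiers of 34807 probes were matched to RefSeq (GRCm38.p6), which also supplied the promoter sequences.

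Values x became log2(2^x + 16). Genes whose probe reached 6 on at least 2 of 8 arrays were kept (14082 probes, 8317 genes, the probe of highest mean per gene; 2910 genes had several such probes). State contrasts were fitted with limma 3.58.1 (lmFit, eBayes, R 4.3.3) over all 8 arrays, 2-sided, with Benjamini-Hochberg adjustment at 0.05 over all genes. Lineages stood as the replication of the differentiated and reprogrammed states, and the d0 and p4 arrays as that of MSCs. A value under 6 on every dim array gives a bound against 6.32, that level after the offset. The members, the pathway and marker lists, the level and the offset were chosen with earlier results of these data known. Named genes are the 9 members, pathway genes with a state difference of at least 1 or the 2 largest of their role list, and up to 5 genes of highest Pearson r per member. Stra6, Lrat, Rdh10, Cyp26a1, Cyp26b1, Rara and Rarres2 were named after their values were seen. Settings tried were no offset, an offset of 64, other level filters, the mean of a gene's probes, blocks for array set and lineage, 2 states only, and each array left out. The number of arrays limits the precision.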

Additional observations from a re-analysis of the deposited data

Results flagged for a closer look

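The receptor genes had differences of opposite sign between lineages, which were not tested, since each lineage had 1 array a side. Rarg was lower in differentiated adipocytes than in MSCs, at -1.87, and slightly higher in differentiated chondrocytes and osteocytes, at 0.15 and 0.20. From differentiated to reprogrammed cells Rarg was higher in adipocytes, at 1.42, and lower in chondrocytes and osteocytes, at -0.41 and -0.48, but its second probe was higher in osteocytes as well, at 0.51. For Rarb, reprogrammed minus differentiated was 0.78 in adipocytes, -0.21 in chondrocytes and -1.11 in osteocytes. In adipocytes and chondrocytes both Rarb arrays were under the level, and the other Rarb probes had the opposite sign in chondrocytes, at 0.33 and 0.07, so these values support no direction.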

How the results depend on the processing

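For reprogrammed against differentiated cells, the 54 calls became 0 with the array set as a block and 7 with lineage as a replicate block, and stayed at 42 to 57 under the other settings on all arrays and 60 with these 2 states only. Leaving out 1 array at a time gave 2 to 216, with 216 without differentiated adipocytes and 2 without each of the reprogrammed arrays. For differentiated cells against MSCs, the 5 calls became 2 with no offset, 10 with an offset of 64, 3 with a level of 6 on at least 1 array, 3 with no filter on level, 1 with the array set as a block and 0 with these 2 states only. Leaving out 1 array at a time gave 1 to 57, with 57 without differentiated adipocytes, 1 without MSC p4 and 2 without MSC d0 or any 1 of the reprogrammed arrays. The cause was not tested. Reprogrammed cells against MSCs gave 0 calls under every setting run, as did the 18 pathway genes in each comparison. Deviations of the differentiated and the reprogrammed array of the same lineage correlated at r = 0.227 for osteocytes, 0.17 for adipocytes and 0.087 for chondrocytes. Pairs of unlike lineage had r from -0.246 to 0.031. The labels do not say that arrays of the same lineage share a culture. Of the other values recomputed for single genes, those of Aldh1a1 and Aldh1a7 for reprogrammed minus differentiated cells kept their sign under all settings run (-4.90 to -2.30 and -7.28 to -4.97), as did those of Crabp1 (2.31 to 4.32), Aldh1a2 (0.77 to 3.34) and Rbp4 (-2.98 to -0.47). Those of Rarb and Rarg changed sign (-1.0 to 0.23 and -0.50 to 0.53). For differentiated cells minus MSCs, leaving out 1 array moved Aldh1a1 between 2.55 (without differentiated osteocytes) and 4.83, Aldh1a2 between -3.15 and -1.22 (without MSC d0), Aldh1a7 between 5.33 and 6.82, Crabp1 between -2.46 and -1.96 and Rbp4 between 0.93 (without MSC p4) and 2.63, and turned Rarg from -0.50 to 0.18 without differentiated adipocytes. For reprogrammed cells minus MSCs, Aldh1a1, Aldh1a2, Aldh1a7 and Rbp4 had either sign (-0.85 to 0.72, -1.74 to 0.19, -0.66 to 0.17 and -1.24 to 0.46). With 1 array for most cell types, differences among dim probes could not be told from the floor.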
